A study of Rattus norvegicus with 24 samples.

Results

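The CpGs of a 400 kb window of rat chromosome 7 that holds the Hoxc cluster (Rnor6.0, chr7:144400000-144800000) were followed in the kidneys of 12 female rats by reduced representation bisulfite sequencing (RRBS), which reads CpG-rich fragments after a treatment that turns an unmethylated C, and not a methylated C, into T. A member is 1 cytosine of a CpG, given by base and strand, with at least 10 reads in at least 9 of the 12 libraries. By this rule 990 of the 1926 cytosines listed in the window by any library were members, out of 1187674 in the genome. The rule used coverage and position only. The rats were 2 months old by the labels and fell into 4 groups of 3 separate rats, which are non-pregnant CD (CD-NP), CD at day 18 of pregnancy (CD-P18), non-pregnant BN (BN-NP) and BN at day 18 of pregnancy (BN-P18). CD are outbred Sprague Dawley rats, so that each is a different genome, and BN are inbred Brown Norway rats, the strain from which the Rnor6.0 assembly was made. RNA-seq of the same groups gave gene counts for 12 libraries.

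Hox genes encode homeodomain transcription factors that give cells their position along the body axis, and they lie in clusters in the order in which they are used along it. The Hoxc cluster is read in 1 direction from Hoxc13, at the posterior end, to Hoxc4, and it carries microRNAs between and inside its genes. In tissues that do not use them, Hox genes are held silent mainly by Polycomb complexes, and their CpG islands are known for low DNA methylation, while most CpGs elsewhere in the genome are methylated.

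Sequences of 3 RefSeq features of the window are shown because they tie methylation levels to known elements and span the low and the intermediate levels found there. Each was placed on Rnor6.0 by matching the spacing of its CpGs to the spacing of the covered cytosines. They are printed 5′ to 3′ from RefSeq (GRCr8), and the capitals mark CpGs of which at least 1 cytosine is a member. The Mir615 hairpin lies inside Hoxc5 in the RefSeq annotation. It was placed on the plus strand at chr7:144629019-144629110, where 13 of its 14 CpG cytosines were listed, against 8 at the next best place. The promoter windows run from 250 bases before to 50 bases after the annotated start. That of LOC102547478 was placed on the plus strand at chr7:144725271-144725570 (28 of 40 cytosines, against 8), and that of LOC120093746 on the minus strand at chr7:144767959-144768258 (13 of 80 cytosines, against 9, the least secure of these places).
Mir615 hairpin: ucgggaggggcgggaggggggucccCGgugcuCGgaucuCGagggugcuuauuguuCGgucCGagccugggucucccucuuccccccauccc
LOC102547478 promoter: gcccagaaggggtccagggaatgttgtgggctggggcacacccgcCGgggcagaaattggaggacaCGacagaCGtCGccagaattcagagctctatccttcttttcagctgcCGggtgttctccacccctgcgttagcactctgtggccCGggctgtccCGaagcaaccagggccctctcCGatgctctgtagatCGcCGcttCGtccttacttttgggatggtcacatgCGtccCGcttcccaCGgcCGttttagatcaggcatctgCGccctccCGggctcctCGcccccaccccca
LOC120093746 promoter: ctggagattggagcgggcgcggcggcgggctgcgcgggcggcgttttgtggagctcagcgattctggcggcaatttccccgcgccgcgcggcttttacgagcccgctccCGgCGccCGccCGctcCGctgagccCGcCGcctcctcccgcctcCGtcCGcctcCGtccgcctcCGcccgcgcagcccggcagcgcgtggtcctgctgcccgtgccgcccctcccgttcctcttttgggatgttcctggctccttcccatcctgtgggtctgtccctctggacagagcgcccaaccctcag

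The 8 member cytosines of the Mir615 hairpin had a mean methylation level of 12.2%, with single cytosines from 9.61 to 15.3%. The 22 members of the LOC102547478 promoter had a mean of 6.29% and ranged from 1.78 to 16.0%. The 11 members of the LOC120093746 promoter had a mean of 0.57% and ranged from 0 to 1.62%. All 3 elements were thus far below the genome's median level of 38.6%. By these means the microRNA inside Hoxc5 was the most methylated of them, but its rats varied widely. The hairpin had 4.56, 3.71 and 20.6% in CD-NP, 9.32, 19.3 and 13.2% in CD-P18 and 17.2, 8.66 and 9.24% in BN-NP. Of the BN-P18 rats only rat 3 had a value (15.9%). In CD-NP rats 1 and 2 the hairpin lay below the LOC102547478 promoter. In the LOC102547478 promoter the rats of CD-NP had 8.65, 3.76 and 5.55%, those of CD-P18 had 6.76, 4.56 and 3.60%, those of BN-NP had 8.19, 6.21 and 4.22% and those of BN-P18 had 6.63, 10.2 and 7.62%. All 4 groups overlapped.

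Coverage was summed per library to between 21669162 and 44738436 reads over listed CpGs, which had at least 5 reads each, and gene counts came to between 8274159 and 11879451 per RNA-seq library. Over the members, the median coverage ran from 12 reads in CD-NP rat 3 to 26 reads in BN-NP rat 3. At least 10 reads covered 66.7% of the members in CD-NP rat 3, 77.0% in BN-P18 rat 2 and 99.7% in CD-P18 rat 3, so that CD-NP rat 3 gives the least precise values below. In these reads of 1 kidney section per rat, a level is a mean over all its cell types.

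Methylation across the Hoxc window was low but rarely absent. The median level of the 990 members, each taken as its mean over the libraries that covered it, was 7.42% (quartiles 2.39 and 28.1%). Of the members, 549 (55.5%) lay under 10%, 291 (29.4%) between 10 and 50%, and 150 (15.2%) at 50% or more. In the genome, by the same coverage rule, these shares were 43.0%, 10.2% and 46.8%. The window thus held more low and intermediate and fewer highly methylated CpGs than the genome, and levels of 80% or more were reached by 7.78% of its members against 32.9% in the genome. Equal windows around the other clusters placed in the same way had like shares. The Hoxa window on chromosome 4 (471 CpGs) had 55.6%, 29.7% and 14.6% in the 3 classes, and the Hoxd window on chromosome 3 (973 CpGs) had 60.8%, 23.9% and 15.2%.

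Fewer CpGs were free of methylation in the Hoxc window than in the sets set beside it. Levels under 1% were found in 104 members (10.5%), against 20.6% of the Hoxa, 25.1% of the Hoxd and 30.4% of the genome's CpGs. Levels from 1 to 10% were found in 445 members (44.9%), against 35.03%, 35.8% and 12.6%. The median level among CpGs under 10% was 2.71% in Hoxc, 1.58% in Hoxa, 1.38% in Hoxd and 0.51% in the genome. These are descriptions over neighbouring CpGs of the same 12 rats, which are not independent, and were not tested.

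**Figure D1:**
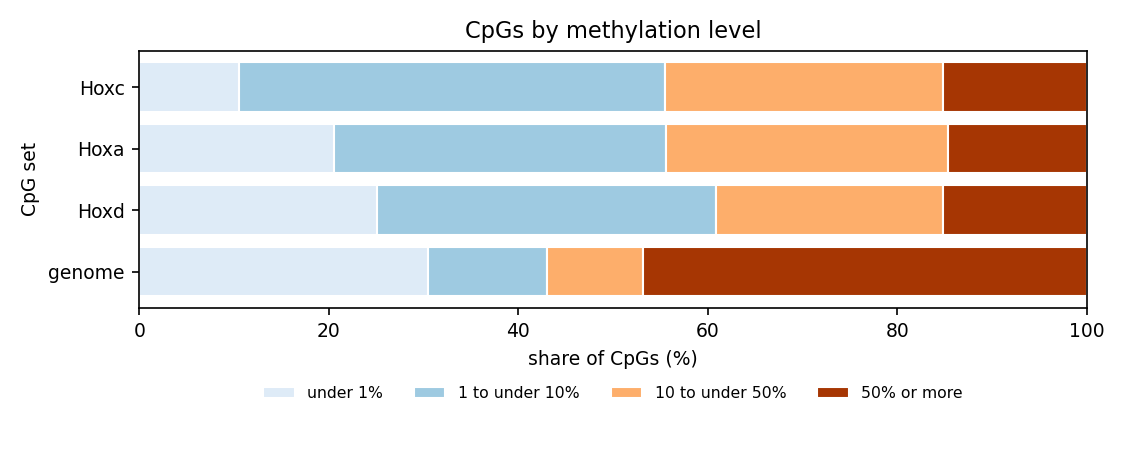
Share of CpGs (%) in 4 classes of mean methylation level, for the Hoxc, Hoxa and Hoxd windows and for all CpGs of the genome with at least 10 reads in at least 9 libraries. The class under 1% holds 10.5% of the Hoxc CpGs and 30.4% of the genome's, and the class of 50% or more holds 15.2% and 46.8%.

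The median level of the stretches below rose along the chromosome. All of them but the second also hold sequence outside the cluster, and no Hoxc gene promoter was placed by its sequence. The first began with a highly methylated part, described in the next paragraph. The window was divided at 3 features whose places were found. In the first 174 kb, up to a CpG that the study's annotation puts 1 to 5 kb upstream of Hoxc10, the 369 members had a median of 3.54% and a mean of 10.5%, with 78.9% of them under 10%. This stretch holds, by gene order, Hoxc13, Hoxc12 and Hoxc11. In the next 54.8 kb, from Hoxc10 to Mir615 in Hoxc5, the 301 members had a median of 7.95% and a mean of 14.1%. In the 96.1 kb from Mir615 to the promoter of LOC102547667, an uncharacterized gene beyond Hoxc4, the 117 members had a median of 24.3%. In the last 74.9 kb the 203 members had a median of 37.4%, and 44.3% of them were at 50% or more.

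Long runs of like CpGs made up this pattern. Before the cluster all 23 members of 112 kb lay between 33.5 and 97.2% (median 67.3%), and the last 4 of them, at 144503554, 144503567, 144503697 and 144516928, had 91.0, 86.0, 81.3 and 65.5%. From the next member on, 76 members in a row stayed under 10%, from 144520863 to 144537650 (16.8 kb, mean 2.38%). The level thus fell from 65.5% to 3.85% between neighbouring members, and of the 346 members from there to the CpG upstream of Hoxc10, 84.1% were under 10% (median 3.30%). At the other end, 56 members in a row were at 10% or more between 144725605 and 144766046 (40.4 kb, mean 73.2%), and the last 23 of them were all at 50% or more (6.24 kb, mean 89.1%). These CpGs were chosen after their values were seen.

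**Figure D2:**
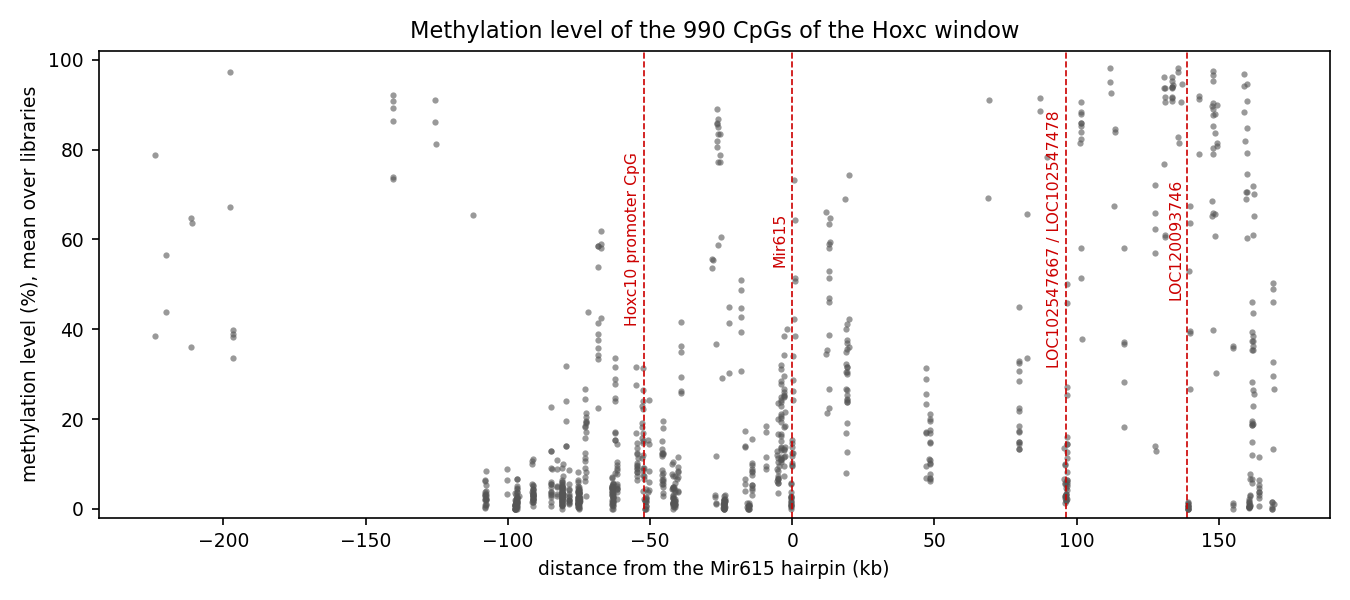
Mean methylation level (%) of each of the 990 members over the libraries that covered it, against its distance in kb from the Mir615 hairpin. Most points before the hairpin lie under 10%, and the longest run at 50% or more (23 members) lies beyond it.

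Levels also followed the local density of covered CpGs. The 252 members with 0 to 4 other members within 100 bases had a median of 38.6%, the 527 members with 5 to 14 had 6.75%, and the 211 members with 15 or more had 3.51%. Across members, Spearman's rho between this number and the level was -0.47. This rho is across CpGs that share libraries and base composition, and it is a description.

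The values repeated well between strands and rats. In the 164 CpGs with a member on each strand, the levels of the strands correlated with r = 0.989 across CpGs, their median difference was 1.64 percentage points, and 0 of the pairs differed by over 20 points. Over the 341 members with at least 10 reads in all 12 libraries, Pearson's r across CpGs was 0.929 to 0.964 between rats of the same group and 0.921 to 0.962 between rats of different groups, so that these ranges nearly coincided. The spread between rats of a group, relative to the counting error of the reads (1 means counting error alone), was 1.08 in CD and 1.07 in BN over the 123 of these members with a pooled level between 10 and 90%. Genome-wide these values were 1.24 and 1.12. By this measure, over these members, the outbred CD rats varied about as little as the inbred BN rats. The mean level over the 341 members had an SD of 0.87 points in CD-NP and 1.02 in CD-P18, against 0.50 in BN-NP and 0.67 in BN-P18.

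Runs of at least 10 members with no gap over 200 bases formed 34 covered clusters, which held 683 members (69.0%, against 50.7% of CpGs in the genome). The mean level was under 10% in 18 clusters, between 10 and 50% in 14 and above that in 2. The lowest, of 13 members at 144531502-144531614, had 0.81%. In the first stretch the large clusters at 144547921-144548287 (50 members) and 144553533-144554260 (57 members) had 3.44 and 2.57%. Single clusters of quite another level lay among them. The cluster at 144560601-144560848 (10 members) had 41.4%, with rats from 29.9 to 51.7%. The cluster at 144602476-144602856 (10 members) had 81.5%, with rats from 75.6 to 88.8%, while the next cluster, 144604805-144605267 (29 members) in order, had 1.19%. Around Mir615 neighbouring clusters differed, from 2.16% at 144628438-144628561 to 17.2% at 144629044-144629144.

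Most clusters differed by few points between the strains and between the stages. Between the means of the 6 rats of each strain, 29 of the 34 clusters differed by less than 3 points. Between the stages 30 did. Because 18 of the 34 had a mean under 10%, there was little room for larger differences in them. No such share was computed for the genome's clusters, so these counts do not show that the groups were alike. BN lay below CD without overlap of the 6 rats of each strain in 1 cluster, where 0.603% of 24374 such clusters of the genome did, and BN lay above CD without overlap in 0 clusters, where 1.28% did. P18 lay below NP without overlap in 0 (0.111% in the genome) and above it in 0 (0.123%). In the cluster that differed, at 144576474-144576737 (13 members), the CD-NP rats had 17.6, 22.4 and 18.4%, the CD-P18 rats 21.5, 18.3 and 21.6%, the BN-NP rats 12.7, 5.93 and 9.15% and the BN-P18 rats 10.5, 16.8 and 10.7%. Every CD rat was above every BN rat, and NP and P18 rats were mixed within each strain. The cluster at 144790645-144790867 (22 members), at the far end of the window, had the largest difference the other way, with a mean of 34.3% in BN and 25.5% in CD. Its CD rats ran from 18.7 to 32.2% and its BN rats from 31.1 to 39.2%, so that the strains overlapped.

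Between single groups of 3 rats, clusters without overlap numbered 0 to 3 in each direction. At P18 against NP, 1 cluster was lower in CD (5.94% of the genome’s clusters) and 0 were higher (4.53%), and in BN 1 was lower (5.53%) and 3 were higher (5.25%). Of the strains, BN was lower in 2 clusters in NP (6.46%) and higher in 0 (7.27%), and at P18 it was lower in 2 (6.04%) and higher in 3 (8.75%). At 144624899-144625056 (23 members), before Mir615, the BN-NP rats had 17.4, 12.4 and 16.8% and the BN-P18 rats 27.8, 27.8 and 25.6%, while the CD rats ran from 14.6 to 24.2% over both stages. The BN stages did not overlap there, and the CD stages did. In the cluster at 144560601-144560848 the BN-NP rats had 37.6, 29.9 and 40.7% and the BN-P18 rats 51.2, 42.5 and 48.5%, also without overlap, while the CD stages overlapped. These comparisons were added after the values were seen.

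**Figure D3:**
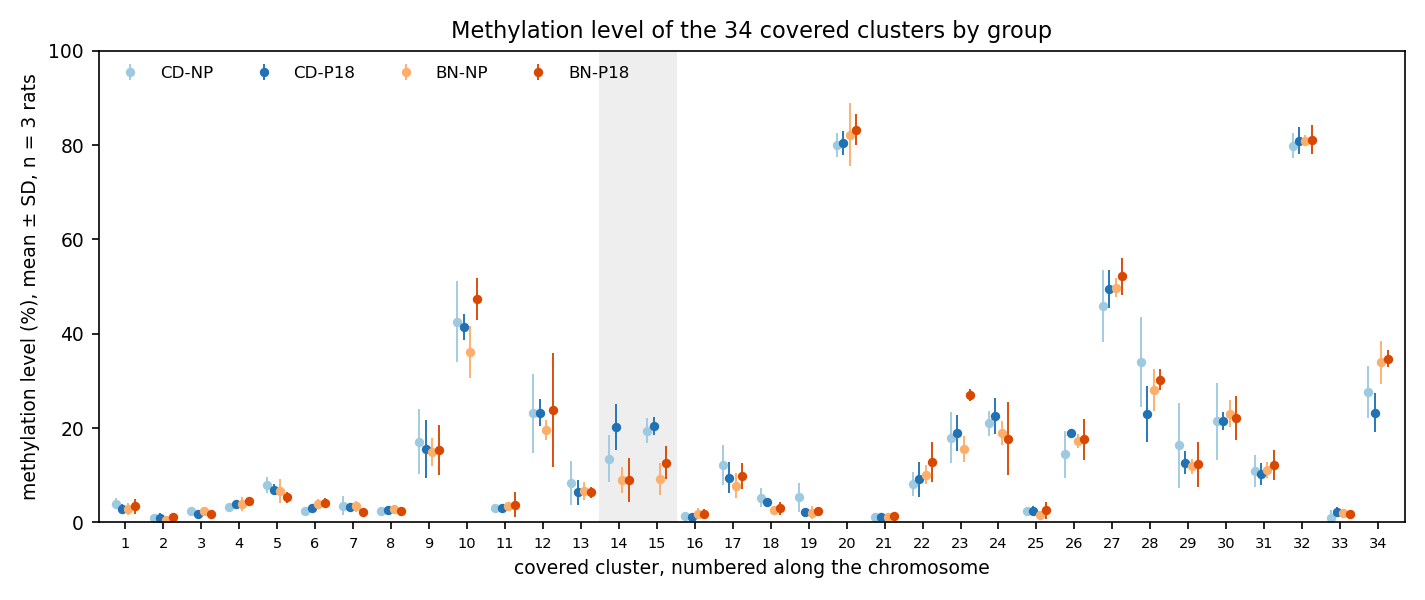
Mean methylation level (%) of each of the 34 covered clusters in the 4 groups, as mean ± SD over 3 rats, in order along the chromosome, with the clusters 14 and 15 upstream of Hoxc10 shaded. The groups lie close together in most clusters, and in the shaded clusters both CD groups lie above both BN groups.

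Averaged over the whole window, strain and pregnancy made no difference beyond the spread between rats. The CD-NP rats had a mean level of 21.6, 17.6 and 20.9% (20.04 ± 2.12, SD, n = 3), the CD-P18 rats 21.1, 19.9 and 19.99% (20.3 ± 0.66), the BN-NP rats 20.8, 19.5 and 20.3% (20.2 ± 0.66) and the BN-P18 rats 21.1, 21.3 and 20.5% (20.96 ± 0.43). All 4 groups overlapped. Over the 341 members covered in every library, the group means ran from 19.6 to 20.2%.

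Single CpGs were compared with a quasi-binomial logistic model of methylated and unmethylated reads, whose F test was moderated with limma and adjusted by Benjamini-Hochberg over all 404069 CpGs of the genome with at least 10 reads in all 12 libraries. A CpG was called where the adjusted p was under 0.05 and the pooled reads of the groups were more than 10 percentage points apart. Of the 341 members tested, 0 were called between CD-P18 and CD-NP (0.0483% of the genome's CpGs were called), 0 between BN-P18 and BN-NP (0.000247%), 0 between BN-NP and CD-NP (0.592%) and 0 between BN-P18 and CD-P18 (0.555%). With the stages together, 0 were called between the strains (0.909%), with the strains together 0 between P18 and NP (0.0171%), and 0 for the interaction of strain and stage (0.00520%, by adjusted p alone). These shares are so small that 341 CpGs hold few calls at the rate of the genome.

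At an unadjusted p under 0.05 the same model passed 8 members for pregnancy in CD (3.35% of CpGs in the genome), 14 for pregnancy in BN (3.52%), 21 for strain in NP (5.05%), 24 for strain at P18 (4.94%), 30 for strain over both stages (6.23%), 17 for stage over both strains (3.74%) and 17 for the interaction (3.83%). Fixing the spread at the counting error, as an alternative, called 2 members for strain at P18 (0.793% of the genome's CpGs) and 2 for strain over both stages (1.17%), which were the CpGs at 144574175 and 144576953 described below. The median differences of the members lay between -0.20 and 0.37 points in the comparisons of 2 groups. Differences over 10 points were seen in 20 to 36 of the 341 members in these comparisons (5.87 to 10.6%, against 6.19 to 8.78% of the genome's CpGs), and single members reached from -29.6 to 24.5 points. The median coverage of the members was 12 to 26 reads per rat, and the quasi-binomial model called 0 of the 341 in these comparisons. Over 123 of these members, the spread within groups relative to counting error was 1.08 in CD and 1.07 in BN, as given above. The part of read depth in the lack of calls was not tested.

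Counts of CpGs whose rats did not overlap were equally small. BN lay below CD in 0 members (0.251% in the genome) and above CD in 1 (0.479%). P18 lay below NP in 0 (0.0827%) and above NP in 1 (0.0453%). The CpG with BN above CD, at 144740981 on the minus strand beyond the cluster, was nearly fully methylated in BN. Its CD-NP rats had 85.3, 75 and 90.5%, its CD-P18 rats 92, 89.5 and 94.4%, its BN-NP rats 95, 94.6 and 100% and its BN-P18 rats 97.2, 96.8 and 100%. Every BN rat was above every CD rat, by little, and the adjusted p of the same model over both stages was 0.0976. The CpG with P18 above NP, at 144623896 on the minus strand before Mir615, had 0, 0 and 6.25% in CD-NP, 7.5, 8.33 and 17.2% in CD-P18, 0, 0 and 3.85% in BN-NP and 10.5, 11.1 and 14.3% in BN-P18. Here every pregnant rat was above every non-pregnant rat in both strains, with an adjusted p of 0.947 over both strains. Both CpGs were chosen after their values were seen.

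A stretch upstream of Hoxc10, a posterior Hox gene of the lumbar level of the body axis, was less methylated in the BN than in the CD rats. The study's own annotation names a CpG 1 to 5 kb upstream of Hoxc10 and another in its promoter. By their values these were matched to 144574175 and 144576953 on the plus strand, the first as the single match in the genome, the second as the single match on chromosome 7 and 1 of 2 in the genome. They were listed there for a difference in these same libraries, so their values are a description. At 144574175 the CD-NP rats had 34.8, 33.3 and 33.3%, the CD-P18 rats 34.8, 70.6 and 24.0%, the BN-NP rats 30.4, 26.1 and 10% and the BN-P18 rats 15, 6.90 and 11.1%, with 12 to 30 reads per rat. The pregnant BN rats were below every CD rat, while the non-pregnant BN rats reached into the range of CD. The pooled levels at P18 were 10.4% in BN and 40.0% in CD, a difference of -29.6 points (adjusted p = 0.0871), and over both stages 15.8% and 37.0%, a difference of -21.2 points (adjusted p = 0.0570), neither of which passed the threshold. The difference at P18 rested much on single CD-P18 rats. It was -18.7 points without CD-P18 rat 2, the one at 70.6% (adjusted p = 0.754), and -39.6 points without CD-P18 rat 3, when it passed the threshold (adjusted p = 0.00946).

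At 144576953 the CD-NP rats had 14.6, 16.7 and 17.1%, the CD-P18 rats 17.1, 7.32 and 15.9%, the BN-NP rats 4.08, 0 and 10.9% and the BN-P18 rats 0, 0 and 5.26%, with 24 to 55 reads per rat. The highest BN rat was above the lowest CD rat. Over both stages the pooled levels were 3.46% in BN and 14.6% in CD, a difference of -11.1 points (adjusted p = 0.0587). For the non-pregnant rats the difference was -10.7 points and for the pregnant rats -11.6 points.

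Between these CpGs, 35 members lie within 2779 bases, and 34 of them had a lower mean in BN than in CD, 28 of them at both stages. These 35 include both annotated CpGs, and the stretch was chosen after those CpGs were known to differ. Over the stretch the CD-NP rats had mean levels of 16.2, 13.96 and 20.2% (16.8 ± 3.17, SD, n = 3), the CD-P18 rats 23.7, 19.5 and 17.3% (20.2 ± 3.21), the BN-NP rats 12.01, 9.14 and 8.12% (9.76 ± 2.02) and the BN-P18 rats 9.06, 10.2 and 11.2% (10.1 ± 1.05). All 6 BN rats, from 8.12 to 12.01%, were below all 6 CD rats, from 13.96 to 23.7%, with strain means of 9.94 and 18.5%. The stages overlapped in each strain.

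The members on either side differed less. The 35 members just before the stretch (144565878-144574152) had strain means of 9.99% in BN and 11.1% in CD, with 22 lower in BN and 12 higher, and the 35 just after it (144576977-144583430) had 5.39% and 7.30%, with 21 lower and 11 higher. The rats of the strains overlapped in both, but in the members after the stretch only through BN-P18 rat 1 (8.29%). The other BN rats there ran from 4.17 to 5.43% and the CD rats from 6.39 to 8.21%. Across the whole window 492 members were lower in BN, 467 higher and 31 equal, so that the window as a whole showed no general shift. As background, the genome was divided into 8640 blocks of 35 consecutive CpGs no longer than 10 kb. BN lay below CD without overlap in 0.475% of these blocks and above it in 0.868%, and all CpGs or all but 1 were lower in BN in 5 blocks (0.0579%) and higher in 8 (0.0926%). The blocks were not chosen by CpGs known to differ, as the stretch was, so these shares give no rate for it. The stretch also includes the cluster at 144576474-144576737 described above, and is not a separate observation. Of the 35 members, 10 had at least 10 reads in every library and were tested, and 0 were called. By the quasi-binomial model an unadjusted p under 0.05 was found in 3 for strain in NP, in 6 at P18 and in 7 over both stages. In the genome these shares were 5.05, 4.94 and 6.23%. The 10 include both annotated CpGs, which were listed for a difference in these libraries, so these counts are no test of the stretch.

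**Figure D4:**
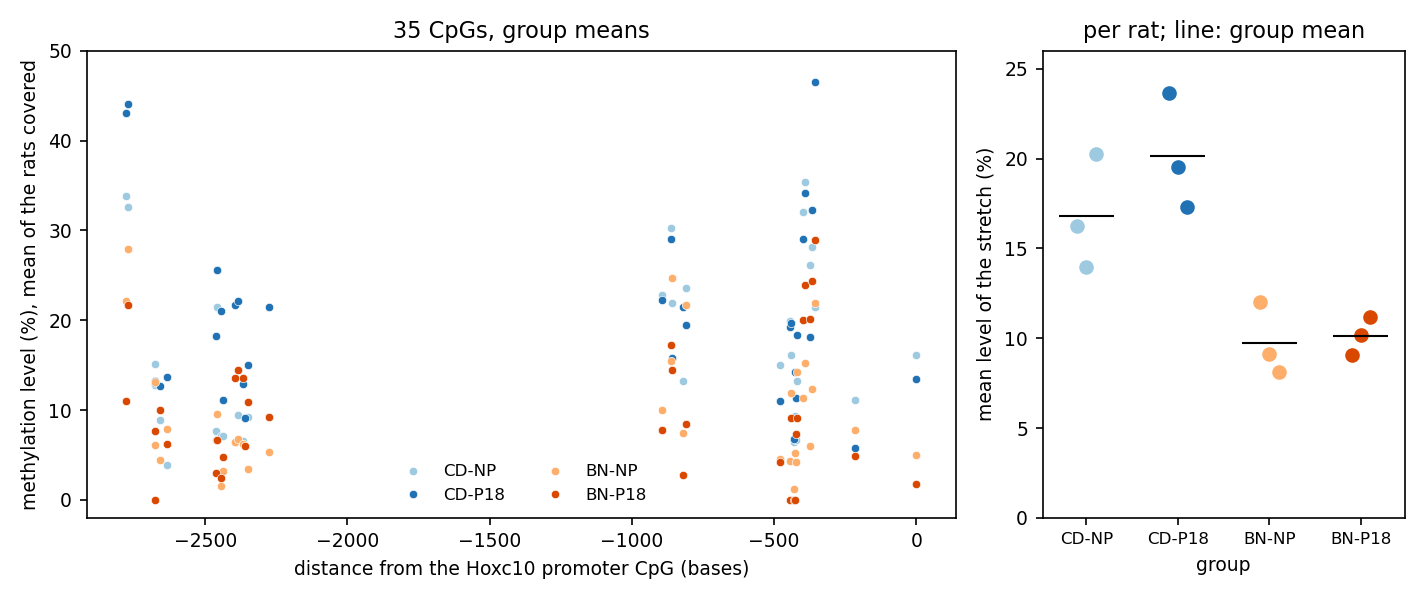
Methylation level (%) of the 35 members upstream of Hoxc10 by group against their distance in bases from the annotated promoter CpG (left), and the mean level of the stretch in each rat with the group mean as a line (right). All 6 CD rats lie between 13.96 and 23.7% and all 6 BN rats between 8.12 and 12.01%.

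A C-to-T variant at a CpG reads as an unmethylated C, and no genotypes of these rats were used here, so that a variant and a lower methylation at a single CpG cannot be told apart. Upstream of Hoxc10 the lower strain was BN, from which the Rnor6.0 assembly was made (9.94%, against 18.5% in CD). The part of variants in this difference was not tested.

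RNA levels of the Hoxc genes were examined by strain and stage. The count table gives identifiers only, and 3 of the 9 Hoxc genes, Hoxc10, Hoxc8 and Hoxc6, could be paired with one, through the study's list of genes, which leans to genes that changed between these groups, so that their number called says nothing about the cluster. Genes were tested with edgeR's quasi-likelihood test over 14212 genes, and called where the adjusted p was under 0.1 and the level over 25% higher or lower. In BN-NP against CD-NP 2 of these 3 were called, both higher in BN (8.38% of all genes were called, and 3.83% were called higher), and in BN-P18 against CD-P18 all 3 were called higher in BN (9.60% were called, and 4.90% called higher). In whole kidney, more RNA per cell and more cells of a type cannot be told apart.

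Hoxc10 was higher in BN at both stages. Its levels in CPM, read counts scaled to the library total, were 18.4, 17.1 and 22.2 in CD-NP, 18.8, 16.9 and 14.6 in CD-P18, 25.4, 30.4 and 29.1 in BN-NP and 33.1, 30.2 and 28.8 in BN-P18. Every BN rat was above every CD rat. The log2 fold change of BN against CD was 0.56 (SE 0.12, edgeR adjusted p = 0.0183) in NP, which is under a 1.5-fold change, and 0.87 (SE 0.12, adjusted p = 0.000785) at P18.

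Hoxc8, a Hox gene of the middle of the cluster, known for its role in thoracic and brachial patterning, showed the same order of strains. It had 8.12, 7.28 and 6.80 CPM in CD-NP, 8.66, 7.38 and 5.10 in CD-P18, 12.1, 12.2 and 13.49 in BN-NP and 14.4, 12.6 and 12.5 in BN-P18. The strains did not overlap, and its log2 fold changes were 0.76 (SE 0.17, edgeR adjusted p = 0.0176) in NP and 0.89 (SE 0.17, adjusted p = 0.00551) at P18. Hoxc6, its neighbour on the anterior side, had 18.5, 20.99 and 26.6 CPM in CD-NP, 17.5, 20.4 and 18.3 in CD-P18, 28.9, 27.3 and 24.5 in BN-NP and 25.98, 26.7 and 26.7 in BN-P18. One CD-NP rat lay within the range of BN, while the groups at P18 did not overlap. Its log2 fold changes were 0.29 (SE 0.12, edgeR adjusted p = 0.199) in NP, which was not called, and 0.50 (SE 0.12, adjusted p = 0.0260) at P18, the latter no longer past the threshold without CD-P18 rat 1 (adjusted p = 0.106). The difference in NP was called without CD-NP rat 3 (log2 fold change 0.45, edgeR adjusted p = 0.0454) and was 0.18 without CD-NP rat 1 (adjusted p = 0.436). The pregnancy comparisons called 0 of the 3 genes in CD (4.71% of all genes were called), 0 in BN (1.40%), and 0 for the interaction (0.943%), by edgeR, with 0 at an unadjusted p under 0.05 and 0 by DESeq2.

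**Figure D5:**
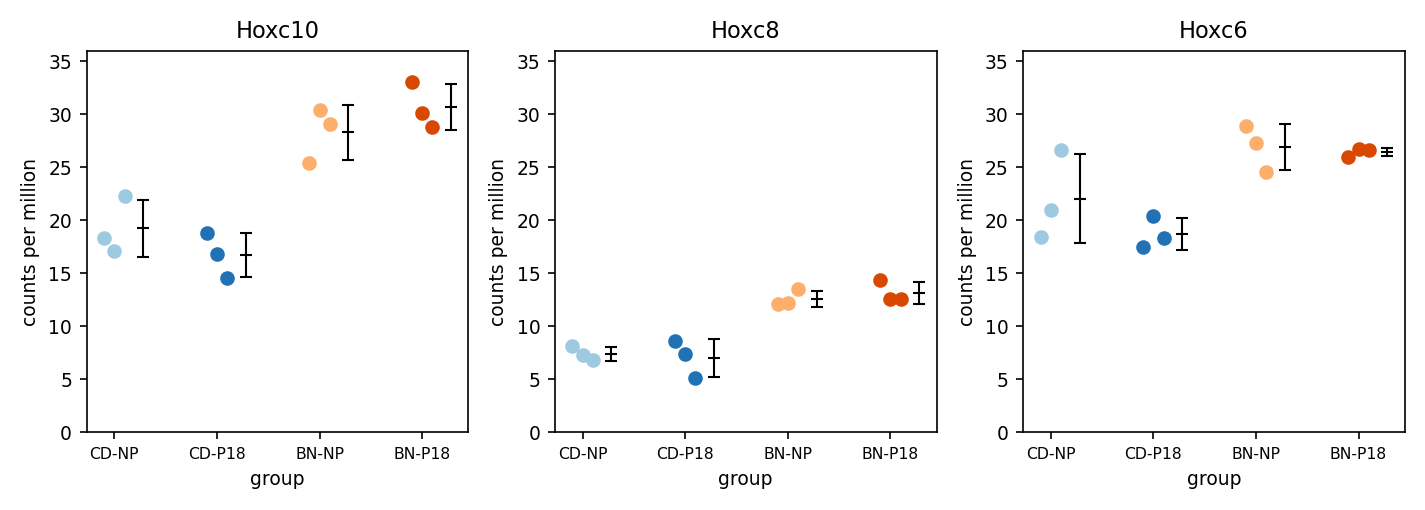
Level of Hoxc10, Hoxc8 and Hoxc6 in CPM, read counts scaled to the library total, in each of the 12 RNA-seq libraries, by group. For Hoxc10 the BN rats lie between 25.4 and 33.1 and the CD rats between 14.6 and 22.2.

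Other Hox genes with a paired identifier did not share the higher level in BN-NP. The genes below were named through the same list, which leans to genes that changed, so their calls say nothing about their families. Hoxb7, Hoxb8 and Hoxd9 were called lower in BN-NP than in CD-NP (log2 fold changes -0.40, -0.39 and -0.43, edgeR adjusted p = 0.0257, 0.0237 and 0.0448). In that comparison 8.38% of all genes were called in either direction. At P18 these Hox genes were not called, with log2 fold changes of BN against CD of -0.26, 0.07 and -0.06. No Hoxa gene had an identifier. Among the Hox cofactors with one, Pbx3 was called lower and Meis1 higher in BN at both stages. Of 12 Polycomb genes 3 had one, of which Pcgf2 was higher in BN-P18 than in CD-P18, and of 7 genes of DNA methylation only Tet2, a demethylating enzyme, had one, and it was higher at P18 in CD (log2 fold change 0.81, adjusted p = 0.0219). As a check of the tissue, kidney markers were present in every library, with 1426 to 3137 CPM for Slc34a1 (proximal tubule) and 602 to 880 CPM for Slc12a3 (distal tubule). They also moved between groups, since both were called lower at P18 in CD and Slc12a3 was called higher in BN-P18 than in CD-P18 (adjusted p = 0.0205). Krt5, a marker of urothelium, had 0 to 1.10 CPM in CD and 0.966 to 4.14 CPM in BN and was called higher in BN-NP (adjusted p = 0.0634). The part of these markers in the difference of the Hoxc genes was not tested. The other markers of urothelium and those of fat, adrenal and muscle had no paired identifier.

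Methylation upstream of Hoxc10 and Hoxc10 RNA were set side by side within each strain, since the rats of the 2 strains did not overlap in either. Over the 6 CD rats, matched by label, Pearson's r was 0.40 (exact permutation p = 0.433) and Spearman's rho 0.49 (exact permutation p = 0.356), with the same p-values after adjustment over the 2 strains, and r was 0.52 without the 2 rats farthest from the median level. Over the 6 BN rats r was -0.67 (exact permutation p = 0.135, adjusted over the 2 strains p = 0.269), rho was -0.66 (exact permutation p = 0.175, adjusted p = 0.35), and r was -0.81 without the 2 farthest rats. The signs differed between the strains, and no relation within a strain passed the test.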

How the data were processed

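RRBS and RNA-seq libraries of 12 rats were assigned to groups from their labels. For RRBS, per the labels and the study's methods, the authors trimmed reads with Trim Galore 0.4.5, removed duplicates by the N6 tags of the kit, and mapped the rest with Bismark on Rnor6.0. The deposited lists, in methylKit's format, hold CpGs with at least 5 reads, with a read count and the percent methylated. For RNA-seq, the authors aligned trimmed reads with STAR 2.5.2 and deposited raw counts per gene from HTSeq 0.6.1. The strand setting of that counting is not given in the sources used here, and summary lines, 72.5 to 75.6% of the total of each column, were left out.

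Methylated reads were recovered from coverage and percent, and at least 99.9977% of values came out within 0.1 read of a whole number. The level of a CpG was its mean over libraries with at least 10 reads. That of a region in a library was the mean over its CpGs plus the mean deviation of the CpGs that the library covered, so that a missing CpG did not shift it, except for the whole window, where it was the mean over the CpGs covered. The logistic model was fitted with numpy 2.4.6 to all CpGs of the genome, with dispersions moderated by limma 3.58.1 and never under 1. Genes were fitted with edgeR 4.0.16 (TMM). Scripts were tested on simulated data. Alternatives covered coverage, strands, dispersion, DESeq2 1.42.0, filters, a replicate block and leaving out each rat. The number of reads per CpG limits the precision of its level.

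No Rnor6.0 annotation was used. RefSeq sequences (GRCr8) were placed by CpG spacing, 16 of 30 near Hoxc, 4 of them inside the window. The Hoxc10 CpGs came from matching the study's annotated list to the files. Gene symbols come from a match of the study's gene table, whose fold changes served for names only with the deposited counts (3035 of 3064 symbols, against 5.78% with the sign turned). By the rule for names, all CpGs called (0), the covered clusters and all Hoxc genes with a symbol were named. Of the 34 clusters, those at the extremes or with a difference are given singly and the rest by counts, and the CpGs named were chosen after their values were seen or from the study's annotation. Some listed genes are not reported here. Members and lists were chosen with earlier results of these data known.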

Additional observations from a re-analysis of the deposited data

Results flagged for a closer look

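Among the results examined beside the Hoxc window, Slc12a3, the sodium chloride cotransporter of the distal tubule used here as a kidney marker, responded differently to pregnancy in the strains (interaction, edgeR adjusted p = 0.0695). Its log2 fold change at P18 was -0.44 in CD and 0.10 in BN. For the CpGs of the window, 0 of 341 passed the test of the interaction.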

How the results depend on the processing

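Over 198 alternative settings of the counts and window means, 182 left the result within its tolerance (1.5 times for a count, 1 SD between rats for a mean), and 16 moved it. All the CpG counts were 0 in the main setting, so that only a call could move them. For strain at P18, fixing the dispersion at 1 called 2 CpGs, and leaving out 1 rat at a time called 0 to 1, the 1 without CD-P18 rat 3. For strain over both stages, dispersion fixed at 1 called 2 CpGs, summing both strands called 1, and leaving out 1 rat at a time called 0 to 1, with 1 without CD-P18 rat 2, CD-P18 rat 3 or any of the 3 BN-NP rats. The calls came from the Hoxc10 CpGs at 144574175 (adjusted p 0.00944 to 1 over the alternatives at P18, 0.00819 to 0.923 over both stages) or 144576953 (0.0391 to 1, and 0.00106 to 0.759). Replicate numbers showed no pairing of the rats, by the correlation between libraries of their deviations from the group means. It was -0.017 to 0.025 in RRBS and -0.188 to 0.270 in RNA-seq for the same number in different groups. For different numbers it was -0.033 to 0.030 and -0.279 to 0.219. With a replicate block, 2 CpGs were called for strain over both stages, against 0 without it, and the gene counts of 2 and 3 did not move.

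With the threshold for genes raised to 0.05 and 1.5-fold, 1 Hoxc gene was called in BN-NP against CD-NP, with Hoxc10 lost, and 2 in BN-P18 against CD-P18, with Hoxc6 lost. With 1 rat left out, 2 to 3 genes were called in NP (3 without CD-NP rat 3) and 2 to 3 at P18 (2 without CD-P18 rat 1). With at least 20 reads in at least 9 libraries the window mean of NP rats was 17.7% for CD and 16.99% for BN, that of P18 rats 18.02% for CD and 17.3% for BN, and over CpGs covered in all 12 libraries it was 19.8% in BN-P18. With 1 rat left out the window mean of NP rats was 19.2 to 21.2% for CD and 19.9 to 20.6% for BN, that of P18 rats 19.9 to 20.5% for CD and 20.8 to 21.2% for BN. The cause of these moves was not tested. Depth limits single CpGs, since only 341 of the 990 members had 10 reads in every library and were tested.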
